A study of Homo sapiens with 12 samples.

Results

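Polycomb repressive complex 2 (PRC2) is represented here by 10 genes that were listed by symbol, of the 25369 symbols in the deposited count table. They are the catalytic subunits EZH2 and EZH1, the core partners EED, SUZ12, RBBP4 and RBBP7, and the accessory subunits JARID2, AEBP2, MTF2 and C17orf96. All 10 of 10 were in the table and all 10 passed the filter on low counts, which kept 12514 genes. The members were chosen by their place in the complex, with earlier results of these data known. C17orf96 is the older symbol of EPOP and is used as the table gives it.

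RNA was measured in 12 xenograft tumours. All were formed in mice by MDA-MB-231, a human triple-negative breast cancer cell line. Tumours came from 4 treatment groups with 3 libraries each. The control group received only the vehicle (4% DMSO, 30% PEG 300 and 5% Tween 80). Mice of the p38i group were given SB202190, which inhibits p38 MAP kinases, at 1 mg/kg/day. Mice of the EZH2i group were given EPZ-6438, which inhibits the EZH2 enzyme and whose code the labels spell in 2 ways, at 10 mg/kg/day. The combination group received both compounds, for which the labels give no separate doses. All groups shared the same cell line, 50 µl of Matrigel at injection, a starting tumour volume of 100 mm3, and intraperitoneal dosing on 5 days a week. The labels give 10 mice per group and neither the mouse strain nor the length of treatment. The results therefore describe 1 cell line, and no step that separates mouse reads from human ones is recorded.

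PRC2 places methyl groups on lysine 27 of histone H3, a mark of silenced genes. EZH2 and EZH1 carry the catalytic domain and are alternatives within a complex, SUZ12 is the scaffold, EED reads the methyl mark and stimulates the enzyme, and RBBP4 and RBBP7 bind histones. Accessory subunits define alternative forms: MTF2, its relatives PHF1 and PHF19, and EPOP belong to PRC2.1, while JARID2 and AEBP2 belong to PRC2.2. EZH2 is typical of dividing cells and EZH1 of resting ones. EPZ-6438 blocks the enzyme's use of its methyl donor, and neither inhibitor is directed at a transcript, so the levels of EZH2 or EZH1 RNA check no treatment label.

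The sequences just upstream of member genes are shown because EZH2 RNA followed proliferation genes from tumour to tumour (described after the group comparisons), and many cell cycle promoters carry CCAAT boxes, the letters bound by the factor NF-Y. RefSeq promoters (GRCh38.p14) could be matched for 9 of the 10 members, with 13 start sites in all. C17orf96 had no match. Each line holds the 150 bases before a start site, 5′ to 3′ on the gene's own strand, with CCAAT on either strand (CCAAT or ATTGG) in capitals. The stretches lie at chr7:148884292-148884441 (minus strand, EZH2), chr10:128126424-128126573 (minus, MKI67, the Ki-67 proliferation antigen), chr17:31936857-31937006 (plus, SUZ12) and chr17:42745041-42745190 (minus, EZH1).
EZH2: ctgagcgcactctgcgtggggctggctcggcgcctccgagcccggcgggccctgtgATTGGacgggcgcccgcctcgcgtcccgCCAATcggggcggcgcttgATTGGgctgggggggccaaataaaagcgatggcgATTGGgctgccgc
MKI67: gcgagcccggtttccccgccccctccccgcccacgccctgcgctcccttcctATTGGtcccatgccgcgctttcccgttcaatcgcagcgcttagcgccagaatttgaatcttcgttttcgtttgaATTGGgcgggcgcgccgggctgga
SUZ12: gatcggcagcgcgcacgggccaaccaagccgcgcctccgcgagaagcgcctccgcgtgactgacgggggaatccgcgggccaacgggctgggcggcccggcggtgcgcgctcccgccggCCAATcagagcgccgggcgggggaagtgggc
EZH1: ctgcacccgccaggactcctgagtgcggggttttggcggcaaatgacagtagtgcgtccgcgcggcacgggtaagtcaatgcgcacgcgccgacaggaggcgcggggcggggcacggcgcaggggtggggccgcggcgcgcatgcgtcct

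Within the 250 bases before a start, this EZH2 promoter held 4 copies of CCAAT. At least 4 copies stood in 307 of the 35116 promoters of the table, or 0.874%. That cut-off was set by this EZH2 promoter itself, so the share is a description and no test. The other EZH2 start in the table held 0. At least 1 copy was found in 8 of the 13 member promoters, those of EED, EZH2, JARID2, RBBP4, RBBP7 and SUZ12, against 32% of all promoters. The windows of the RBBP4 starts overlap, and a site that they share is counted in both. Letters that E2F cell cycle factors bind (TTTGGCGC, TTTCGCGC, TTTCCCGC or TTTGCCGC, both strands) were found in 3 of the 13, at AEBP2, EZH1 and SUZ12, against 2.79% of all. The CHR letters of late cell cycle promoters (TTTGAA or TTCGAA, both strands) were found in 1 of the 13, at SUZ12, against 14.3% of all. None of these motifs lies within another, and they were chosen after the genes most like EZH2 had been seen. Of the promoters not printed, RBBP4 held 2 and 1 copies of CCAAT, RBBP7 1 and 1, JARID2 1 and 0, and EED 1. MTF2, AEBP2 and PHF1 held 0, and PHF19 1 and 1. The Pearson r with the proliferation list, described below, was -0.36 for RBBP4, 0.62 for RBBP7, 0.02 for JARID2 and 0.50 for EED. It was 0.60 for MTF2, -0.37 for AEBP2, 0.24 for PHF1 and 0.94 for PHF19. A match describes the sequence only, and its part in these relations was not tested.

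Library totals ran from 2208771 to 4467942 counts, and 16389 to 17549 symbols had at least 1 count in a library. Member counts per library ranged from 24 for C17orf96 to 1050 for JARID2. The tumour cell markers VIM (3770 to 6380 CPM) and CD44 (336 to 725 CPM) were high in every library. CPM is a gene's count relative to the total of its library after TMM scaling, which sets libraries to a common level over most genes. ESR1 and PGR, the hormone receptors that triple-negative cells lack, stood at 1.24 to 13.1 and 2.69 to 7.16 CPM. Other genes listed as low in such cells were ERBB2 (16.6 to 30.5 CPM), FOXA1 (1.49 to 12) and GATA3 (23.1 to 42.6). Summed markers of other cells ran from 275 to 1100 CPM for fibroblasts, 20.9 to 44.4 for macrophages and 8.2 to 20.1 for endothelium. Skeletal muscle markers summed to 354 CPM in the p38i library called col6, with 1 of 10 markers at 0, and to between 0.628 and 18.3 CPM in the other 11 libraries. Beside that, col5 and col6 are p38i libraries whose labels do not tell them apart. The part of muscle RNA in the member values was not tested.

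No PRC2 member passed the test in any of the 6 comparisons (adjusted p under 0.05, edgeR's quasi-likelihood test with Benjamini-Hochberg adjustment over 12514 genes). The members called by DESeq2 and by limma-voom also numbered 0. For p38i against control, 1.77% of all genes tested were called, and for EZH2i against control 0.216%. The share was 0.00799% for the combination against control, 0% for the 6 libraries with p38i against the 6 without, 0% for the same contrast of EZH2i, and 0.024% for the interaction, which asks whether one inhibitor alters the effect of the other. A list of 10 genes at these shares holds fewer than 1 call. At an unadjusted edgeR p under 0.05, the members numbered 3 of 10 (p38i), 1 (EZH2i) and 3 (combination). They numbered 2 and 1 with against without p38i and EZH2i, and 2 in the interaction. Of the 12514 genes tested, 2300, 1842, 2043, 1171, 1167 and 1644 had such a p in these 6 comparisons. A list of 10 genes at those rates holds fewer than 2. The p-values set differences between groups against the spread between these tumours. In bulk RNA, fewer cells of a type and less RNA per cell cannot be told apart.

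Of the 2 catalytic subunits, EZH2 was measured at 104, 123 and 158 CPM in the controls, 127, 172 and 213 in p38i, 144, 159 and 157 in EZH2i, and 162, 120 and 133 in the combination. The lowest value was control 1-1 and the highest p38i col6, and every treated group overlapped the control. Group means were ordered p38i (171 ± 42.8, SD, n = 3), EZH2i (153 ± 7.92), combination (139 ± 21.1) and control (128 ± 27.3). The values of neighbours in that order overlapped, and pairs of treated groups were not tested against each other. Against control, the log2 fold change of EZH2 was 0.41 in p38i (95% interval -0.01 to 0.84, adjusted p = 0.283), 0.26 in EZH2i (-0.17 to 0.68, adjusted p = 0.571) and 0.11 in the combination (-0.32 to 0.53, adjusted p = 0.808). EZH2 fold changes for p38i were 0.23 without col6, 0.29 without control 1-1 and 0.60 without control 2-1 (edgeR adjusted p = 0.684, 0.635 and 0.113).

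EZH1, the paralogue of slower-dividing tissues, stood at 54.5, 60.6 and 38.6 CPM in the controls, 46.4, 69.3 and 39.6 in p38i, 67.1, 66.1 and 51.5 in EZH2i, and 48.9, 44.7 and 56.5 in the combination. All groups overlapped, and the 3 p38i values alone ran from 39.6 to 69.3. Its log2 fold changes against control were 0.02, 0.27 and -0.03 (edgeR adjusted p = 0.978, 0.602 and 0.954). The EZH2 to EZH1 balance, as a log2 ratio of counts within each library, lay between 0.92 (control 1-1) and 2.42 (p38i col6). Differences from control were 0.41 in p38i, 0.00 in EZH2i and 0.14 in the combination, with exact two-sided permutation p of 0.5, 1 and 0.7 (3 against 3 allows no p below 0.1). The p38i difference was 0.06 without p38i col6 and 0.76 without control 2-1. Gene length is fixed within a ratio, so only its differences between tumours are read here.

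Among the core partners, SUZ12 varied least of all 10 members, by 1.3-fold between the lowest and highest of 12 libraries. It was at 194, 202 and 218 CPM in the controls, 217, 252 and 244 in p38i, 196, 247 and 242 in EZH2i, and 210, 217 and 241 in the combination. Its treated groups each overlapped the control, with log2 fold changes of 0.21, 0.16 and 0.12 (edgeR adjusted p = 0.441, 0.637 and 0.681). SUZ12 shares sequence with its pseudogene SUZ12P1, which is counted in the same table, so its counts are uncertain to that extent.

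EED was at 64.5, 64.8 and 94.6 CPM in the controls, 69.2, 74 and 90.8 in p38i, 60.6, 75.6 and 84.7 in EZH2i, and 104, 112 and 96 in the combination. The combination tumours all lay above the controls, although control 2-1, at 94.6, was close to the lowest of them. The log2 fold change of EED in the combination was 0.47 (95% interval 0.08 to 0.87, adjusted p = 0.251). In the single-agent groups it was 0.06 and -0.03.

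RBBP7 had the highest fold change of the members in the combination. Controls measured 82.8, 100 and 153 CPM, p38i 121, 133 and 168, EZH2i 90.7, 127 and 141, and the combination 166, 176 and 224. Every combination tumour lay above every control, and control 2-1 was the closest of the controls. The log2 fold change of RBBP7 was 0.74 ± 0.23 (SE; 95% interval 0.25 to 1.24) with an edgeR adjusted p of 0.197, and DESeq2 gave 0.0762. Without control 2-1 it was 1.05 with an adjusted p of 0.0404, which passes the threshold, so this call depends on 1 control library. Across the 6 libraries with p38i against the 6 without, the RBBP7 difference was 0.49 (adjusted p = 0.474).

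RBBP4, the other histone-binding subunit, had its highest group mean in the controls (72.3 ± 17.9 CPM, SD, n = 3). They stood at 82, 83.2 and 51.7 CPM, p38i at 51.1, 61.8 and 66.5, EZH2i at 44.7, 44 and 50.2, and the combination at 65.9, 42.3 and 43.3. The EZH2i tumours were all below the controls, by a small margin at control 2-1, while the combination overlapped them. The RBBP4 log2 fold changes were -0.26, -0.64 and -0.51 (edgeR adjusted p = 0.553, 0.206 and 0.274), and the 6 libraries with EZH2i differed from the 6 without by -0.44 on the log2 scale (adjusted p = 0.478). RBBP4 and RBBP7 are related genes, and how the authors' counting shared reads between near-identical stretches is not known.

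JARID2 and AEBP2, the subunits of PRC2.2, help the complex settle on chromatin. JARID2 was at 249, 187 and 213 CPM in the controls, 282, 290 and 206 in p38i, 289, 250 and 245 in EZH2i, and 254, 212 and 217 in the combination. Its groups overlapped, with log2 fold changes of 0.26, 0.27 and 0.07 (edgeR adjusted p = 0.427, 0.462 and 0.845). An antisense gene, JARID2-AS1, is also in the table and the use of strand is not stated. AEBP2 was at 34.5, 41.4 and 48.8 CPM in the controls, 33.1, 25.9 and 26.7 in p38i, 32.9, 30.8 and 38 in EZH2i, and 35.7, 37 and 44.9 in the combination. The 3 p38i values lay below the 3 controls, with a log2 fold change of -0.55 (95% interval -0.95 to -0.15, adjusted p = 0.135). The combination stood near the control, at -0.09. The AEBP2 interaction was 0.77 (0.20 to 1.33, adjusted p = 0.228), which did not pass the test.

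MTF2, a PRC2.1 subunit that binds unmethylated CpG islands, was at 79.1, 94 and 91.7 CPM in the controls, 117, 113 and 106 in p38i, 103, 110 and 110 in EZH2i, and 95.5, 85.6 and 103 in the combination. Both single-agent groups lay above all controls and the combination overlapped them. The log2 fold changes of MTF2 were 0.34 (95% interval 0.04 to 0.63, adjusted p = 0.206), 0.29 (adjusted p = 0.352) and 0.10 (adjusted p = 0.737), and its interaction was -0.53 (adjusted p = 0.257). The ratio of MTF2 to JARID2, one subunit of each form of PRC2, differed from control by 0.09, 0.01 and 0.02 on the log2 scale (exact permutation p = 0.8, 0.9 and 1).

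C17orf96, the PRC2.1 subunit EPOP, spanned the widest range of the members, 2.74-fold. It was at 9.99, 10.5 and 13.3 CPM in the controls, 18.7, 13.8 and 27.4 in p38i, 12.2, 15.9 and 14.4 in EZH2i, and 15.5, 14.5 and 14.4 in the combination. The p38i and combination tumours were all above the controls, and the EZH2i tumours overlapped them. In p38i the log2 fold change of C17orf96 was 0.82 (95% interval 0.26 to 1.37, adjusted p = 0.112), the highest among the members. That fold change was 0.52 without p38i col6, 1.05 without p38i col5 and 0.97 without control 2-1 (adjusted p = 0.425, 0.105 and 0.0802). In EZH2i and the combination it was 0.33 and 0.39 (adjusted p = 0.595 and 0.467). Its counts of 24 to 112 per library make it the least precisely measured member.

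**Figure D1:**
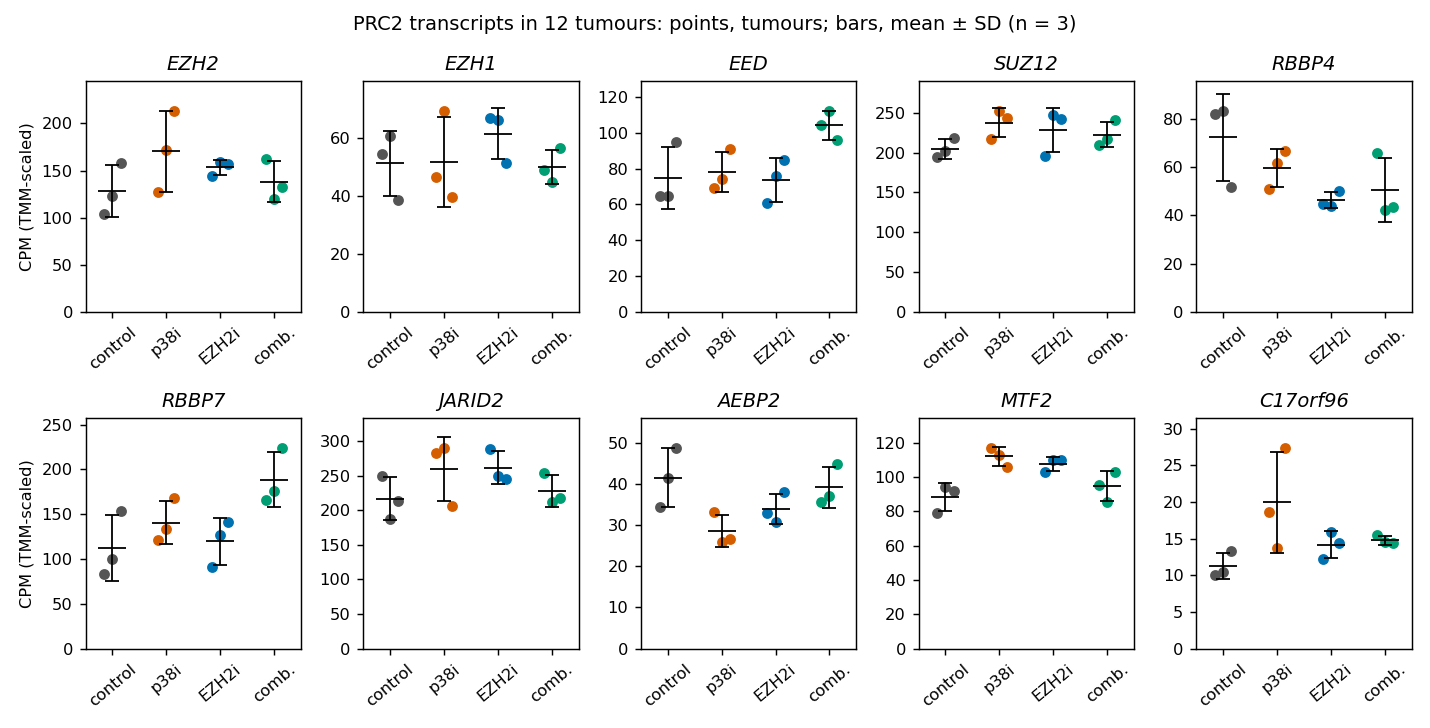
Level of each of the 10 PRC2 members in the 12 tumours, in CPM, by treatment group. Points are single libraries and the bars give the group mean with its SD. SUZ12 is the tightest panel, and the combination points of RBBP7 (166 to 224 CPM) sit above the 3 controls (82.8 to 153 CPM).

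Members whose tumours did not overlap with the controls were counted next. In p38i, MTF2 and C17orf96 lay wholly above the controls and AEBP2 wholly below, against 12.3% of all genes above and 12.5% below. In EZH2i, MTF2 lay above and RBBP4 below, against 8.32% and 8.09%. In the combination, EED, RBBP7 and C17orf96 lay above and 0 members below, against 10.7% and 11.2%. With 10 members, those shares come to about 1 gene on either side. More members than that lay above in p38i and the combination, and fewer below in the combination, which was not tested. The fold change was positive for 8 of 10 members in p38i (median 0.24), 7 in EZH2i (0.21) and 7 in the combination (0.10). Over all genes, 49.9%, 51% and 50.4% were positive and the medians were -0.00, 0.01 and 0.01. The comparisons share the control tumours, so these counts are not independent of each other.

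**Figure D2:**
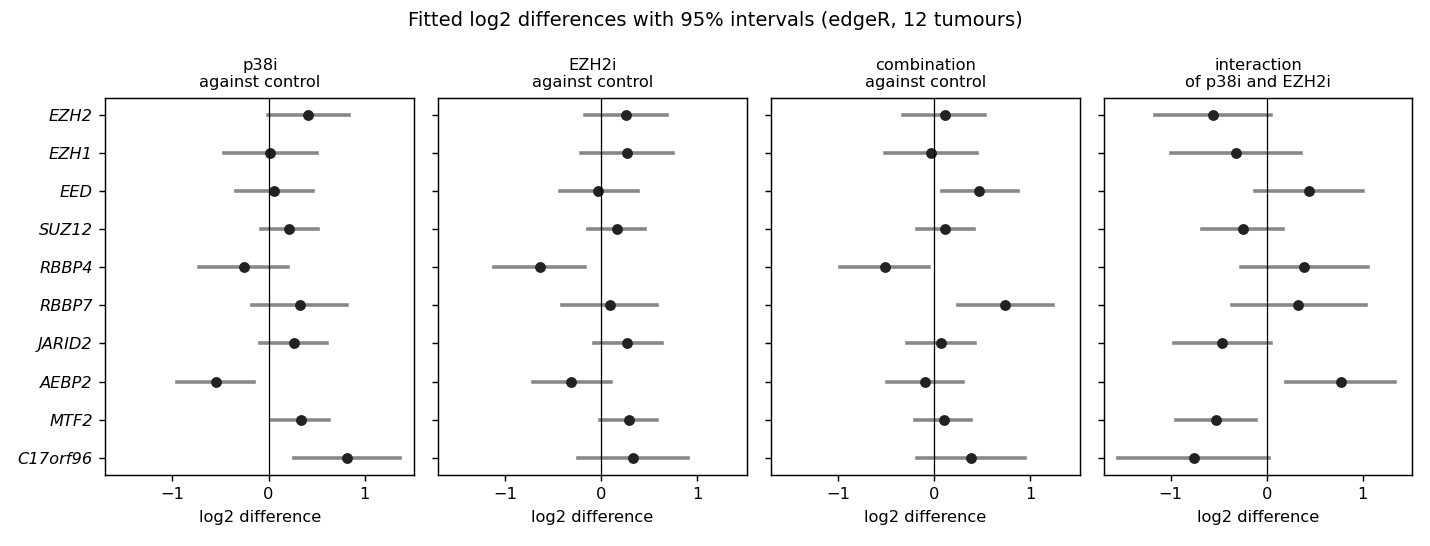
Log2 fold change of each member against control in p38i, EZH2i and the combination, and its interaction, with the 95% interval from the edgeR model. Most intervals include 0. Those of C17orf96, MTF2 and AEBP2 in p38i, RBBP4 in EZH2i, and RBBP7, EED and RBBP4 in the combination do not. Nor do those of AEBP2 (0.20 to 1.33) and MTF2 (-0.94 to -0.11) in the interaction. None of these passed after adjustment over 12514 genes.

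EZH2 also varied from tumour to tumour within the groups. It was followed most closely by genes of cell division: of 10761 genes with a mean of at least 5 CPM, those with the highest Pearson r to EZH2 over the 12 libraries were MKI67 (0.94), TOP2A (0.94), which untangles replicated DNA, NUSAP1 (0.92), a spindle protein, the PRC2.1 subunit PHF19 (0.91) and KIF20B (0.91), a mitotic kinesin. PHF19 thus ranked at 4 of 10761. The other members ranked lower: C17orf96 at 311, SUZ12 at 482, MTF2 at 866, RBBP7 at 1950, EED at 2920, JARID2 at 5154, RBBP4 at 6360, EZH1 at 7146 and AEBP2 at 9325.

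The mean log2 CPM of 14 tested proliferation genes (replication factors such as MCM3 and RRM2, with MKI67 and TOP2A) gives a scale for each tumour. It was 5.45, 5.92 and 6.19 in the controls, 6.06, 6.39 and 6.66 in p38i, 6.14, 6.50 and 6.28 in EZH2i, and 6.47, 6.20 and 6.19 in the combination. Control 1-1 was lowest and p38i col6 highest, as for EZH2. EZH2 is not on that list, which holds MKI67 and TOP2A, the genes most like it, and which was chosen with earlier results known. Its Pearson r with the list was 0.89 (permutation p = 0.00017, adjusted over 10 relations p = 0.0017) and Spearman's rho 0.85 (adjusted permutation p = 0.01). Without control 1-1 and p38i col6, the 2 libraries farthest from the median, r was 0.78, and after each group's mean was subtracted it was 0.93. Leaving out any single library kept r between 0.86 and 0.93. Over the 12 genes left without MKI67 and TOP2A, a list formed after the data were seen, r was 0.85 (adjusted permutation p = 0.00306 over 12 relations) and 0.72 without those libraries. Of the 12500 tested genes outside the full list of 14, 0.424% had an r with the full list at least as high as that of EZH2 (0.89).

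PHF19 followed the list with r = 0.94 (rho 0.79; adjusted permutation p = 0.00072 and 0.0214 over 12 relations) and 0.78 without the same 2 libraries. SUZ12 gave r = 0.71 (adjusted permutation p = 0.02; rho 0.73, adjusted p = 0.0402) and 0.58 without those libraries. C17orf96 gave r = 0.74 (adjusted permutation p = 0.0326), but its rho of 0.66 had an adjusted p of 0.064 and its r without those libraries was 0.43, so that relation rests on them. Without MKI67 and TOP2A in the list, r was 0.91 for PHF19, 0.70 for SUZ12 (adjusted permutation p = 0.0211) and 0.71 for C17orf96, which then did not pass (adjusted permutation p = 0.0528). RBBP7 (0.62), MTF2 (0.60) and EED (0.50) did not pass after adjustment (permutation, adjusted p = 0.071, 0.071 and 0.159). PHF1 (0.24), JARID2 (0.02), EZH1 (-0.13), RBBP4 (-0.36) and AEBP2 (-0.37) showed no relation that passed. These 12 relations were examined after that of EZH2 was seen. Sequencing depth moved with the same tumours to a lesser degree: the r with log2 total counts was 0.48 for the list, 0.33 for EZH2 and 0.46 for PHF19, and its part in the relation was not tested.

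**Figure D3:**
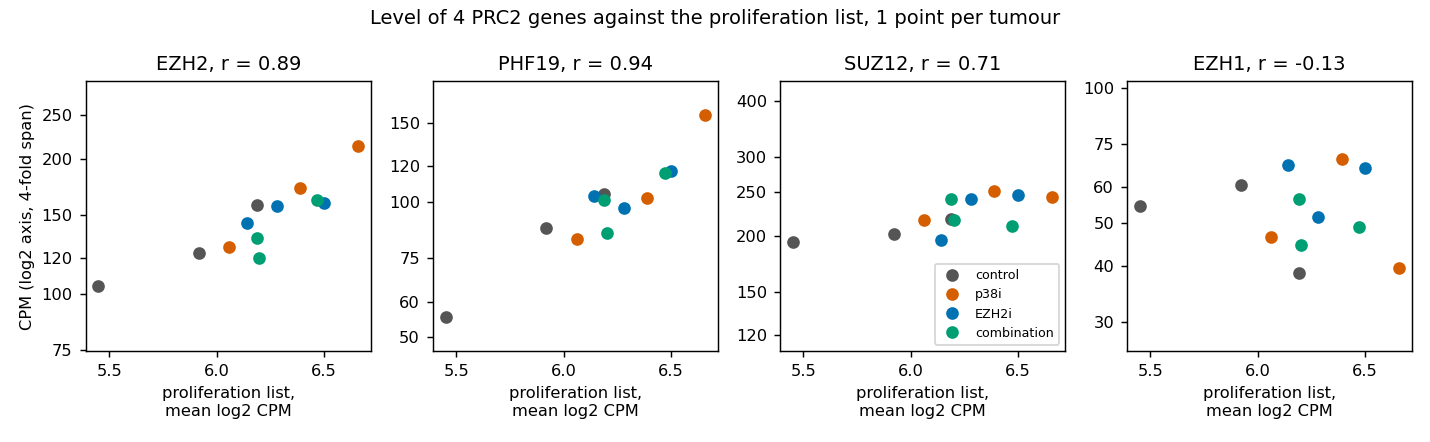
CPM (log2 axis) of EZH2, PHF19, SUZ12 and EZH1 against the mean log2 CPM of 14 proliferation genes in the 12 tumours, coloured by treatment group. EZH2 (r = 0.89) and PHF19 (r = 0.94) increase along it over the 12 tumours, though not in strict order within every group. EZH1 (r = -0.13) does not increase along it.

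**Figure D4:**
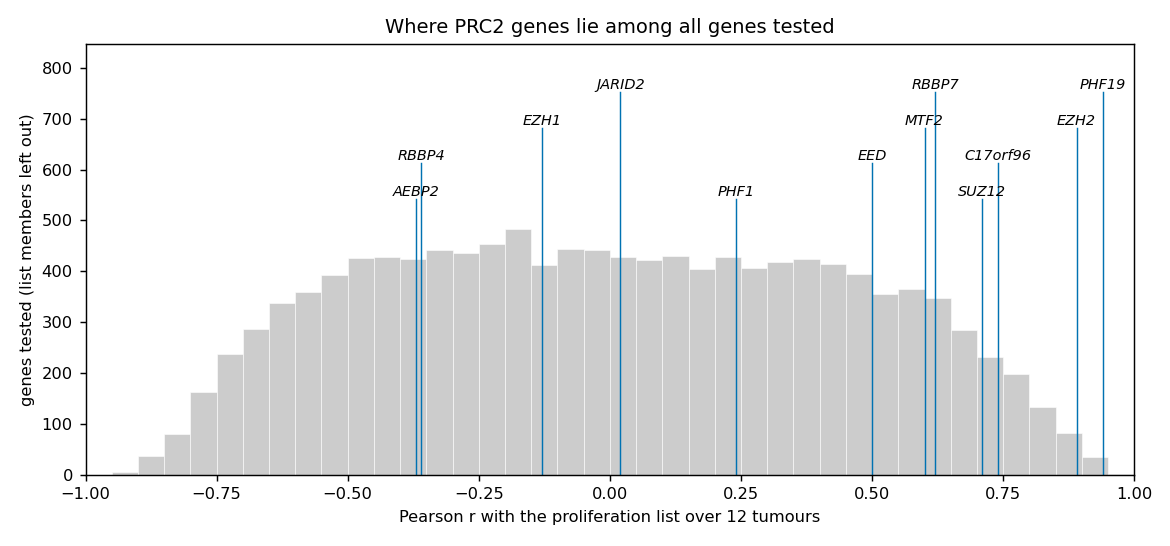
Distribution over 12500 genes of the Pearson r with the proliferation list across 12 tumours, with the members, PHF19 and PHF1 marked. EZH2 and PHF19 lie in the far right tail (0.424% and 0.048% of genes are at least as high), while JARID2 lies near the middle.

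Among the members themselves, EZH2 gave r = 0.70 with C17orf96 (adjusted permutation p = 0.0684; rho 0.46; r 0.11 without control 1-1 and p38i col6) and r = 0.64 with SUZ12 (adjusted p = 0.0786; rho 0.69), and neither passed. Its r with its paralogue EZH1 was -0.17 and with AEBP2 -0.44. Control 1-1 held the lowest value of 5 of the 10 members.

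Of 6 further PRC2 accessory genes listed, 5 were in the table and tested, and 0 were called in any comparison. PHF19 ranged from 55.4 CPM in control 1-1 to 156 in p38i col6, a 2.82-fold span, with log2 fold changes of 0.46, 0.36 and 0.28 in p38i, EZH2i and the combination (edgeR adjusted p = 0.338, 0.519 and 0.566). PHF1 gave 0.12, 0.26 and 0.49. C10orf12 gave 0.01, -0.14 and -0.52 (the last with an adjusted p of 0.253). LCOR gave 0.10, 0.23 and 0.16, and LCORL -0.05, 0.09 and 0.11.

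The partners of PRC2 in the polycomb system gave 1 call, in p38i, where 1.77% of all genes were called. Tested were 17 genes of PRC1, the complex that writes ubiquitin on histone H2A. Of these, SCMH1 fell in p38i, from 24.1, 22.2 and 20.6 CPM in the controls to 12.6, 12.1 and 11.7, with no overlap (log2 fold change -0.87, edgeR adjusted p = 0.0482). SCMH1 was also wholly below the controls in EZH2i, at 13, 12.2 and 17.5 CPM (-0.66, adjusted p = 0.179). The same held in the combination, at 19.3, 17 and 17.9 (-0.30, adjusted p = 0.456). In both groups 0 of 17 were called. Of all genes, 12.5% lay wholly below the controls in p38i, 8.09% in EZH2i and 11.2% in the combination. Of 5 genes listed for removal of the methyl or ubiquitin mark, enzymes and their partners, 0 were called, with ASXL2 at 0.60 and KDM6A at -0.20 in p38i. Of 12 SWI/SNF subunits, which oppose polycomb, 0 were called, with SMARCA2 and SMARCC2 at -0.48 each in p38i.

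Of 16 tested genes that are known from other systems as repressed by EZH2, 2 were called in p38i and 0 in EZH2i or the combination, where 1.77%, 0.216% and 0.00799% of all genes were called. GATA6, a transcription factor, rose from 1.67, 1.5 and 2.61 CPM in the controls to 6.14, 6.35 and 7.34 in p38i (log2 fold change 1.73, edgeR adjusted p = 0.0331). GATA6 stood at 5.29, 7.21 and 6.55 CPM in EZH2i (1.68, adjusted p = 0.0742) and 4.98, 6.38 and 5.65 in the combination (1.51, adjusted p = 0.147), with no overlap with the controls in either. TIMP3, an inhibitor of matrix proteases, fell in p38i, from 3570, 6220 and 5300 CPM to 1360, 2180 and 2010 (-1.44, adjusted p = 0.0331). TIMP3 was wholly below the controls in EZH2i too, at 2780, 2410 and 2060 CPM (-1.06, adjusted p = 0.128). It overlapped them in the combination, at 2750, 4010 and 1730 (-0.83, adjusted p = 0.229). In EZH2i, 8.32% of all genes lay wholly above the controls and 8.09% wholly below, and in the combination 10.7% wholly above.

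NKX2-5, a cardiac transcription factor, had the smallest p of these genes in EZH2i, at 4.88, 2.98 and 5.67 CPM against 0, 0.3 and 0.237 in the controls, or 12 to 13 counts against 0 to 1 (edgeR adjusted p = 0.0742). DKK1, a secreted inhibitor of Wnt signalling, had the smallest in the combination, at 90.5, 170 and 172 CPM against 19.1, 32.7 and 61.6 in the controls (log2 fold change 1.90, adjusted p = 0.139). Neither passed the test. Both lay wholly above the controls there, as did 8.32% (EZH2i) and 10.7% (combination) of all genes. The list's median fold change was -0.07 in p38i with 7 of 16 positive, -0.12 in EZH2i with 6 positive (range -3.70 to 4.24), and 0.03 in the combination with 9 positive.

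All 14 tested proliferation genes had positive fold changes in p38i (median 0.44) and in EZH2i (median 0.37). In the combination 12 of 14 were positive (0.37), and in the interaction 0 of 14 (median -0.46). Over all genes, 49.9%, 51%, 50.4% and 49.3% were positive in these comparisons. The comparisons share the controls, in which the list's mean log2 CPM ran from 5.45 to 6.19. Only MCM3, a replication helicase subunit, passed the test, in p38i, where 1.77% of all genes were called. MCM3 rose there from 89.9, 94 and 116 CPM to 140, 172 and 205 (log2 fold change 0.79, edgeR adjusted p = 0.0433). The 4 calls on SCMH1, GATA6, TIMP3 and MCM3 were all lost without control 1-3, p38i 3-3, col5 or col6. Over the 12 fits that each left out 1 library, SCMH1 lost its call in 9, MCM3 in 8, GATA6 in 6 and TIMP3 in 4. SCMH1 also lost it with library totals in place of TMM (adjusted p = 0.0643), with limma-voom (0.0513), without the filter (0.0868) and with only the groups compared (0.0629). MCM3 lost it with limma-voom (0.0519) and with only the groups compared (0.053), as did GATA6 with only the groups compared (0.053).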

How the data were processed

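The authors' deposited values are raw counts, whole numbers per gene symbol in each library. The submitters' processing notes name Trim Galore 0.5.0, STAR 2.6.0 and the build hg19. The counting program, annotation and use of strand are not given in the sources used here. Libraries took 1.3 µg of total RNA, and both a SMARTer kit and QuantSeq are named, per the labels' protocols. A further 3 lines named no gene and held 0 counts.

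Columns were joined to samples by the column number in the labels, read as the header name. Number 5 is named by 2 p38i samples and number 6 by none. The latter was taken as p38i by elimination, and the libraries are called col5 and col6. Others carry their tumour number. All columns had a sample or group.

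Genes passing filterByExpr were fitted in edgeR 4.0.16 (R 4.3.3) with TMM scaling, 1 term per group, robust quasi-likelihood F tests over all 12 libraries and Benjamini-Hochberg adjustment, threshold 0.05. Every adjusted p of a gene is from this fit unless another tool is named. The biological coefficient of variation was 0.219. CPM are computed values, and log2 CPM used a prior count of 2. Ratios added 0.5 counts and used exact two-sided permutation tests. Correlations used 100000 permutations, two-sided. Code was tested on simulated data. Alternatives were limma-voom (limma 3.58.1), DESeq2 1.42.0, other scalings and filters, and leaving out each library.

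All 10 members were named. Other listed genes were named where adjusted p was under 0.05, otherwise the 2 smallest p. One result that this rule would name is not reported here. The members and lists were chosen with earlier results of these data known. Promoters are RefSeq's, GRCh38.p14.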

Additional observations from a re-analysis of the deposited data

How the results depend on the processing

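The 10 members' fold changes in 6 comparisons were recomputed with library totals or DESeq2 size factors in place of TMM, with DESeq2 and limma-voom, with no or a stricter filter on low counts, without the robust option, on only the groups compared, and without each library. Of 1170 such values, 34 changed sign, none larger than 0.23 on the log2 scale. The number of members called stayed at 0 except without control 2-1, where the combination gave 1 (RBBP7; range 0 to 1). With library totals, r of EZH2 with C17orf96 was 0.72 and passed (adjusted permutation p = 0.0463). Leaving out 1 library moved the log2 ratio of EZH2 to EZH1 between 0.06 and 0.76 (p38i against control), 0.11 and 0.41 (with against without p38i), -0.20 and 0.35 (EZH2i against control), -0.06 and 0.49 (combination) and -0.25 and 0.05 (with against without EZH2i). The ratio of MTF2 to JARID2 moved between -0.09 and 0.24 (p38i), -0.17 and 0.16 (EZH2i), -0.16 and 0.17 (combination), -0.11 and 0.03 (with against without EZH2i) and -0.02 and 0.11 (with against without p38i).

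Counts of all genes called depended more on the tool. DESeq2 called 620 genes in p38i, 230 in EZH2i, 167 in the combination, 17 and 20 with against without p38i and EZH2i, and 226 in the interaction, where edgeR called 221, 27, 1, 0, 0 and 3. Without the filter edgeR called 114 in EZH2i, 42 in the combination and 70 in the interaction. Fitting only the groups compared gave 4 in EZH2i and 4 in the combination, limma-voom gave 16 in EZH2i, and library totals gave 3 in the combination. The cause was not tested. Leaving out 1 library gave 2 to 568 calls in p38i, 2 to 125 in EZH2i, 0 to 229 in the combination and 2 to 42 in the interaction. No paired analysis was possible because the tumour numbers differ between groups. With 3 tumours a group and as few as 24 counts for C17orf96, most 95% intervals of the members' fold changes included 0.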
